A study of Homo sapiens with 6 samples.

Results

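The 9 genes described here encode fibronectin, 4 chains of the basement membrane, smooth muscle actin, both plasminogen activators and a matrix-associated growth regulator. They were taken by symbol from a table of 61806 genes: FN1, COL4A1, COL4A2, LAMB1, LAMC1, PLAT, PLAU, CCN2 and ACTA2. The set was put together because FN1, ACTA2 and PLAT were higher in GFP-812 libraries, so the difference between the groups is described for these 9 genes and not tested. Each symbol matched 1 row, and all 9 genes passed the filter on low counts. ACTA2, at 5, 5 and 8 counts in GFP libraries, passed it only through the GFP-812 libraries, where it was higher.

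RNA was sequenced from 293T cells, an established line of human embryonic kidney origin labelled as epithelial, after lipid-mediated transfection with a plasmid labelled GFP (3 libraries) or GFP-812 (3 libraries). GFP is a fluorescent protein used as a tag. The series title concerns truncated NEK1, and the meaning of the plasmid name GFP-812 is not given in the labels. Both groups were grown in the same serum-containing medium and carried a GFP plasmid, and no time after transfection, promoter or untransfected group is given in the sources used here.

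Fibronectin is a secreted glycoprotein that cells assemble into fibrils through integrins. Type IV collagen and laminin form the sheets of the basement membrane on which kidney epithelium sits. The plasminogen activators, encoded by PLAT (tissue type) and PLAU (urokinase type), convert plasminogen into plasmin, a protease that degrades fibrin and matrix, and inhibitors of the serpin family block the activators. CCN2, also known as connective tissue growth factor, is a secreted protein widely used as a readout of YAP and TEAD activity, and ACTA2 encodes the actin of smooth muscle and of activated fibroblasts.

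Promoter sequences were read from RefSeq windows on GRCh38.p14 that run from 250 bases before a gene's start to 50 bases after it. Of the 9 genes, 8 matched, with 10 windows in all because ACTA2 and PLAU have more than 1 start, and PLAT did not match. The runs below are shown because FN1 varied most within a group, CCN2 is the usual reporter of TEAD factors, and COL4A1 and COL4A2 are read in opposite directions from one shared stretch. FN1 is the 250 bases before its start (chr2:215436069-215436318, minus strand), with TGACGTCA, the site bound by CREB and ATF factors, and CCAAT in capitals. CCN2 is the 250 bases before its start (chr6:131951373-131951622, minus strand), with GGAATG, the core of the TEAD site, and TATAAA in capitals. COL4A1 is the 126 bases between its start and that of COL4A2 (chr13:110307158-110307283, read on the minus strand), with CCAAT and GGGCGG, here on the other strand as ATTGG and CCGCCC, in capitals.
FN1: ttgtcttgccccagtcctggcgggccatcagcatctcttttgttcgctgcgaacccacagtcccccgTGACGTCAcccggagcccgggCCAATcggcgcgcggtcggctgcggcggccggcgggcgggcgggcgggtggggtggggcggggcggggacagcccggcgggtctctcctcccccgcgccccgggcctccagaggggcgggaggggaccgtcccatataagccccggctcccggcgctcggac
CCN2: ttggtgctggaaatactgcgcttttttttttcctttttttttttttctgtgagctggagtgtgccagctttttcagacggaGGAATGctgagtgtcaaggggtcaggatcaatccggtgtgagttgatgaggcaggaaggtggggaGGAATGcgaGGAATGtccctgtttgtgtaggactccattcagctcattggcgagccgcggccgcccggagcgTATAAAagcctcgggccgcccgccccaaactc
COL4A1: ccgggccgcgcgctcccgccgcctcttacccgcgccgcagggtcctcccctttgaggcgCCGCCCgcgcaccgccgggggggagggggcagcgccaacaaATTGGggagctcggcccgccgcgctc
Letters were searched on both strands, and no capitals in these runs belong to more than 1 motif. TGACGTCA was in 1.84% of 34796 distinct promoter windows and in 1 of the 10 windows of these genes, that of FN1, at -183 to -176 relative to its start. GGAATG was in 14% of all windows and in 2 of the 10. It stood 3 times in the CCN2 window and 1 time in the ACTA2 window at chr10:88952724-88953023. TATAAA, as these exact letters, was in 11.6% of all windows and in 1 of the 10, that of CCN2. Similar letters, such as atataag in the FN1 run, were not counted. CCAAT was in 34.6% of all windows and 5 of the 10, of which COL4A1 and COL4A2 hold the same site, and GGGCGG, whose matches overlap one another in FN1, in 44.9% and 8 of the 10. Neither the AP-1 site TGANTCA (7.73% of all windows) nor the CArG box bound by serum response factor (1.3%) matched exactly in the 10 windows. The CArG box was searched as CCWWWWWWGG, with W for A or T. The ACTA2 window at chr10:88952724-88953023 holds ccctatatgg and ccttgtttgg, which each differ from it by 1 letter. Such near matches were not counted.

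The libraries held 14255148 to 17613814 counts. NEK1 checked the plasmid labels, at 493.7 to 562.7 FPKM in GFP-812 libraries and 3.82 to 3.99 FPKM in GFP libraries (FPKM are counts scaled to exonic size and library total). The labels do not state that replicates were separate cultures. The p-values therefore rest only on variation among these libraries, which may be technical. The edgeR tests used below moderate that variation across genes, so their p-values do not measure a gene's own spread alone. GFP replicate 3 was nearer to the GFP-812 libraries than the other GFP libraries were: its root-mean-square difference in log2 CPM (counts scaled to library size) from them was 0.162 to 0.164 over 7007 genes with a mean FPKM of at least 5, against 0.185 to 0.197 for GFP replicates 1 and 2. Libraries of one group differed by 0.121 to 0.131 within GFP-812 and 0.141 to 0.152 within GFP. The epithelial keratins KRT8 and KRT18 stood at 8.95 to 10.8 and 14.53 to 16.44 FPKM. KRT19 was low, at 0.09 to 0.16 FPKM in GFP-812 and 0.19 to 0.27 FPKM in GFP libraries. The epithelial adhesion genes EPCAM and CDH1 were low too, at 0.86 to 1.19 and 0.53 to 0.74 FPKM, while the cadherin gene CDH2 stood at 6.68 to 7.43 FPKM. Of the kidney factors, PAX2 stood at 0.56 to 0.7 FPKM in GFP-812 and 0.34 to 0.45 FPKM in GFP libraries, and PAX8 at or below 0.04 FPKM. Vimentin (VIM), a mesenchymal filament, stood at 115.2 to 126.6 FPKM.

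FN1 (ENSG00000115414, hg38 chromosome 2, 215360440 to 215436073, minus strand) was higher in GFP-812 libraries, but the GFP libraries disagreed with one another. Its level was 4.1, 4.26 and 4.47 FPKM in GFP-812 replicates 1, 2 and 3. In GFP replicates 1, 2 and 3 it was 2.15, 2.53 and 4.06 FPKM. GFP replicates 1 and 2 lay well below every GFP-812 library, whereas GFP replicate 3 lay just under the lowest of them, and the groups did not overlap. The counts behind these values were 598 to 1356, and the 95% Poisson intervals, which cover counting error only, were 3.83 to 4.31 FPKM in GFP replicate 3 and 3.85 to 4.36 FPKM in GFP-812 replicate 1. Group means were 4.28 ± 0.186 FPKM in GFP-812 and 2.91 ± 1.01 FPKM in GFP (SD, n = 3 each), a log2 fold change of 0.57 (SE 0.0934). This edgeR SE draws on variance shared across genes, so it understates the spread of FN1 among the GFP libraries. The SE was 0.288 with DESeq2, and 0.164 or 0.229 with limma on log2 FPKM at a pseudocount of 1 or 0.1. Without GFP replicate 3 the log2 fold change was 0.88, without GFP replicate 1 it was 0.39, and without GFP replicate 2 it was 0.47. The SD of FN1 log2 CPM within the GFP group was 0.472. None of 4650 other genes with a mean count within 2-fold of that of FN1 had a larger SD there, and their median was 0.07. Within the GFP-812 group the SD of FN1 was 0.0595, and 46.7% of those genes had a larger one. In bulk RNA, more cells that express a gene and more RNA per cell cannot be told apart.

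**Figure D1:**
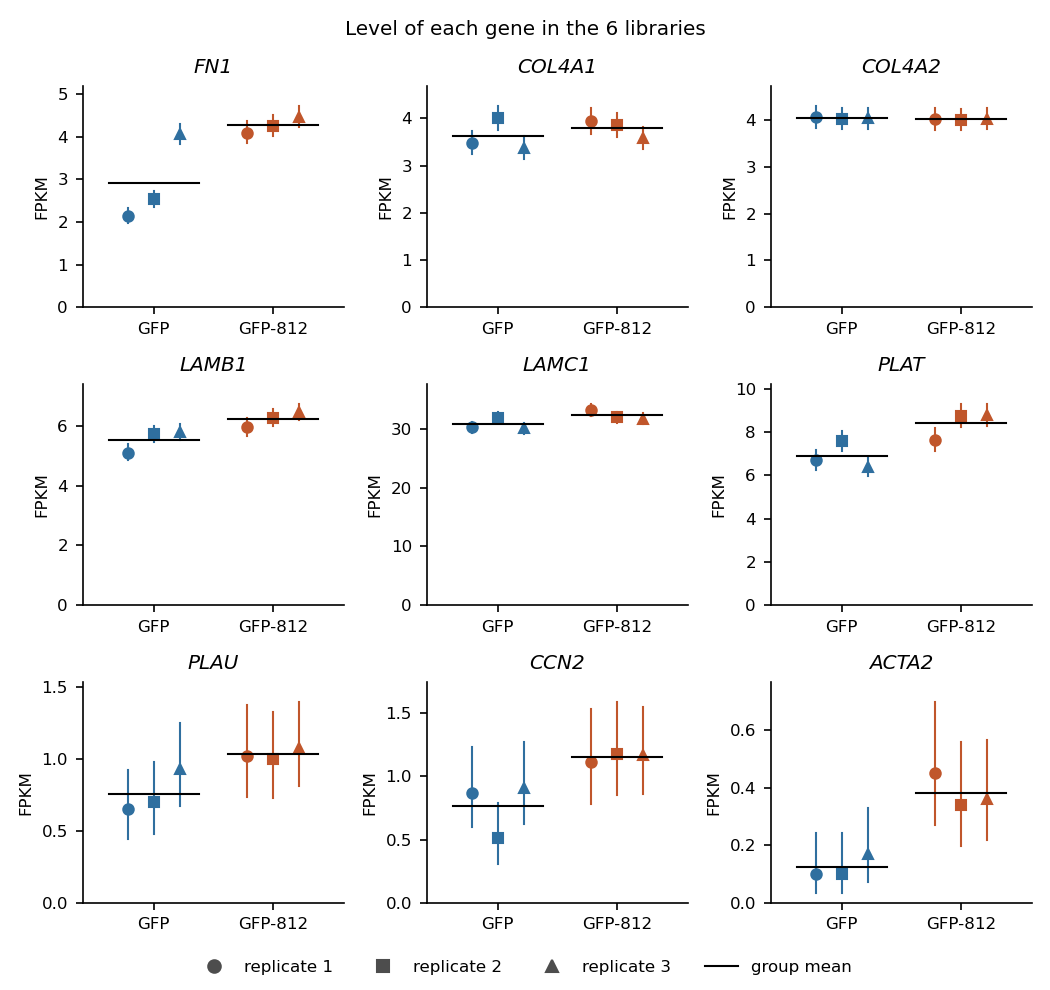
Level in FPKM (vertical axis, from 0) of each of the 9 genes in the 3 GFP and 3 GFP-812 libraries. Marker shapes give the replicate number, vertical lines the 95% Poisson interval of the count and horizontal lines the group mean. FN1 stood at 4.06 FPKM in GFP replicate 3, next to the GFP-812 libraries, and at 2.15 and 2.53 FPKM in the other GFP libraries.

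The type IV collagen chains did not share the FN1 pattern. COL4A1 and COL4A2 encode the chains of the most widespread collagen IV trimer and lie head to head on chromosome 13, with starts 127 bases apart. COL4A1 (ENSG00000187498, 110148963 to 110307157, minus strand) stood at 3.94, 3.85 and 3.58 FPKM in GFP-812 replicates 1 to 3 and at 3.48, 4 and 3.38 FPKM in GFP replicates 1 to 3. The groups overlapped, and the log2 fold change of 0.08 (SE 0.0648) ranged from 0.03 to 0.15 when 1 library was left out, lowest without GFP replicate 3 and highest without GFP replicate 2. COL4A2 (ENSG00000134871, 110305812 to 110513209, plus strand) stood at 4.02, 4.01 and 4.03 FPKM in GFP-812 libraries and at 4.07, 4.02 and 4.04 FPKM in GFP libraries. This was the steadiest gene of the 9, with a log2 fold change of 0.00441 (SE 0.0536) that turned to -0.00822 with total-count scaling. The ratio of COL4A1 to COL4A2 FPKM was 0.943 ± 0.048 in GFP-812 and 0.895 ± 0.0859 in GFP libraries (SD, n = 3 each), and it spanned 0.836 to 0.994 over the 6 libraries with the groups overlapping. The gene models overlap by 1346 bases, and the counting strand is not given in the sources used here, so reads from the overlap cannot be assigned with certainty.

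Among the laminin chains, LAMB1 was slightly higher in GFP-812 libraries and LAMC1 overlapped between the groups. LAMB1 and LAMC1 encode the beta and gamma chains that most laminins of the embryo and kidney share. LAMB1 (ENSG00000091136, chromosome 7, 107923799 to 108003213, minus strand) stood at 5.96, 6.27 and 6.46 FPKM in GFP-812 libraries and at 5.11, 5.72 and 5.8 FPKM in GFP libraries. The groups did not overlap, with GFP replicate 1 the lowest library, and the log2 fold change was 0.18 (SE 0.051), or 0.13 without GFP replicate 1. LAMC1 (ENSG00000135862, chromosome 1, 183023420 to 183145592, plus strand) was by far the most abundant of the 9, at 33.2, 32 and 31.7 FPKM in GFP-812 libraries and 30.3, 31.9 and 30.2 FPKM in GFP libraries. GFP replicate 2 lay above GFP-812 replicate 3, and the log2 fold change was 0.08 (SE 0.0404). The LAMB1 to LAMC1 ratio of FPKM was 0.193 ± 0.0125 in GFP-812 and 0.18 ± 0.0117 in GFP libraries (SD, n = 3 each). It overlapped between the groups. LAMB1 shares 7932 bases of its span with DLD on the opposite strand, a gene at 37.3 to 39.7 FPKM, so its count is uncertain in the same way.

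Of the plasminogen activators, PLAT was higher in every GFP-812 library than in every GFP library, and GFP replicate 3 was here the lowest library. PLAT (ENSG00000104368, chromosome 8, 42174718 to 42207709, minus strand) stood at 7.65, 8.76 and 8.79 FPKM in GFP-812 libraries and at 6.7, 7.57 and 6.39 FPKM in GFP libraries. GFP-812 replicate 1 and GFP replicate 2 were only 0.08 FPKM apart. Means were 8.4 ± 0.65 and 6.89 ± 0.612 FPKM (SD, n = 3 each), and the log2 fold change was 0.30 (SE 0.0641), with 0.25 to 0.37 when 1 library was left out. PLAU (ENSG00000122861, chromosome 10, 73909177 to 73917496, plus strand) was low, at 1.02, 1 and 1.08 FPKM in GFP-812 libraries and 0.65, 0.7 and 0.93 FPKM in GFP libraries. The groups did not overlap, and GFP replicate 3 was again the nearest GFP library. These levels rest on 31 to 56 counts, and the log2 fold change was 0.46 (SE 0.254). PLAT exceeded PLAU in FPKM by 7.48, 8.77 and 8.15 times in GFP-812 libraries and by 10.3, 10.9 and 6.88 times in GFP libraries, so the ratio overlapped between the groups, GFP replicate 3 giving the lowest value.

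CCN2 and ACTA2, like PLAU, were low and rest on few counts. CCN2 (ENSG00000118523, chromosome 6, 131948176 to 131951372, minus strand) stood at 1.11, 1.18 and 1.17 FPKM in GFP-812 libraries and at 0.87, 0.51 and 0.91 FPKM in GFP libraries, from 19 to 48 counts. GFP replicate 2 was the low library here, and the groups did not overlap. The log2 fold change was 0.61 (SE 0.283), and 0.38 without GFP replicate 2. ACTA2 (ENSG00000107796, chromosome 10, 88935074 to 88991339, minus strand) stood at 0.45, 0.34 and 0.36 FPKM in GFP-812 libraries, from 19, 16 and 19 counts. In GFP libraries it stood at 0.1, 0.1 and 0.17 FPKM, from 5, 5 and 8 counts. The groups did not overlap, while the Poisson interval of GFP replicate 3 (0.0723 to 0.33 FPKM) overlapped that of each GFP-812 library (0.197 to 0.699 FPKM in all). The log2 fold change of ACTA2 was 1.61 (SE 0.478), the largest of the 9 genes, and 1.12 on log2(FPKM + 0.1) or 0.30 on log2(FPKM + 1), which shrink changes of low genes.

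ACTA2 reads are also the hardest of the 9 to assign. Its span overlaps FAS by 37527 bases and STAMBPL1 by 40080 bases on the opposite strand. FAS held 123 to 138 counts in every library, 0.283 ± 0.0115 FPKM in GFP-812 and 0.28 ± 0.01 FPKM in GFP (SD, n = 3 each). The near-identical actins ACTG1 and ACTB stood at 418 ± 8 and 211 ± 1.24 FPKM in GFP-812 and at 400 ± 6.61 and 211 ± 3.35 FPKM in GFP libraries (SD, n = 3 each). How reads that match several actins were counted is not given in the sources used here, and their part in the ACTA2 values was not tested. Of the other muscle actins, ACTG2 was at 0 counts in all 6 libraries, which allows up to 3 counts in each, and ACTC1 was at 0 to 3 counts. ACTA1 stood at 0.12 to 0.62 FPKM with the groups overlapping, and its mean was not below that of ACTA2 in either group. Of 7 smooth muscle markers, MYH11, MYOCD and ACTG2 stayed below 0.1 FPKM in every library, and the summed level was 3.48 to 4.08 FPKM in GFP-812 and 3.41 to 4.08 FPKM in GFP libraries. The largest part of that sum was LMOD1, at 1.96 to 2.5 FPKM. DES, a muscle filament gene on the same list, stood at 0.51 to 0.76 FPKM in GFP-812 and 0.12 to 0.28 FPKM in GFP libraries. LMOD1, TAGLN and CNN1 overlapped between the groups. Of 10 fibroblast markers, 5 stayed below 0.1 FPKM everywhere, and the sum was 3.13 to 3.65 FPKM in GFP-812 and 2.65 to 3.24 FPKM in GFP libraries. Of 8 endothelial markers 7 stayed below 0.1 FPKM, and the sum, 0.51 to 0.62 against 0.33 to 0.41 FPKM, was mostly KDR. The macrophage sum was 0.21 to 0.59 FPKM in GFP-812 and 0.36 to 0.87 FPKM in GFP libraries. The part of such markers in the differences of these genes was not tested.

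Across the 9 genes, 6 were higher in GFP-812 without overlap between the groups (FN1, ACTA2, LAMB1, PLAT, PLAU and CCN2), where 7.93% of the 16834 genes tested were, and 20.1% had groups that did not overlap in either direction. By edgeR's quasi-likelihood test at an adjusted p under 0.05, 4 of the 9 were called higher (FN1, ACTA2, LAMB1 and PLAT), where 1.18% of genes tested were called higher, 2.67% lower and 3.84% in either direction. Because the set was chosen on this contrast, these calls are no test of it, and nothing is read from either count or from how the calls hold. Leaving out GFP-812 replicate 1, 2 or 3 gave 3, 1 or 2 calls among the 9, and leaving out GFP replicate 1, 2 or 3 gave 2, 3 or 4. DESeq2 called 2 of the 9 (LAMB1 and PLAT, not FN1), edgeR without a filter on low counts called 3 (not ACTA2), and limma at either pseudocount called 0.

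**Figure D2:**
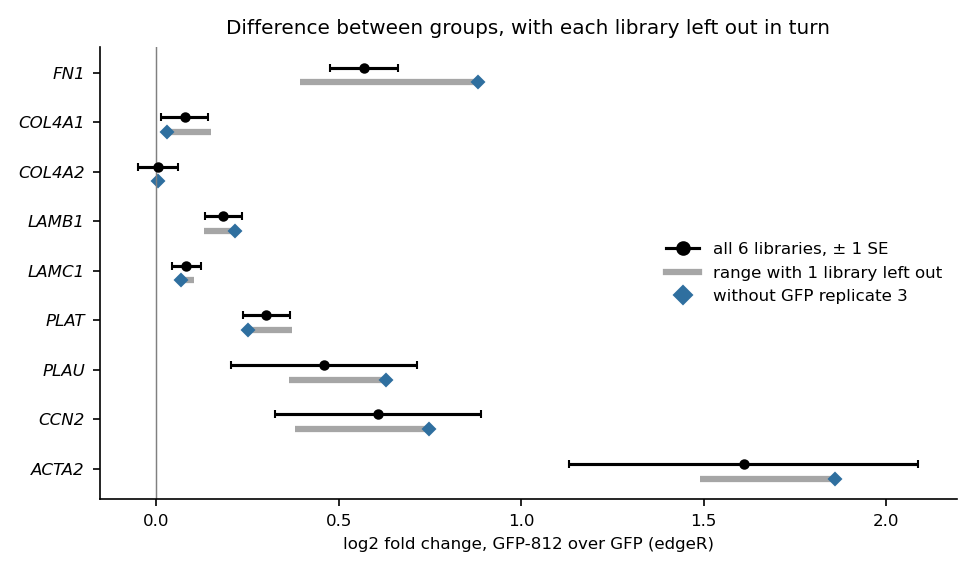
Log2 fold change of GFP-812 over GFP libraries from edgeR (horizontal axis) for the 9 genes. Black points with bars are the values from all 6 libraries ± 1 SE, grey bars the range with 1 library left out in turn and blue diamonds the value without GFP replicate 3, which for FN1 was 0.88 against 0.57 with all libraries.

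Compared per length, LAMC1 led the 9 genes at a mean of 31.6 FPKM over the 6 libraries, followed by PLAT at 7.64, LAMB1 at 5.89, COL4A2 at 4.03, COL4A1 at 3.71, FN1 at 3.59, CCN2 at 0.958, PLAU at 0.897 and ACTA2 at 0.253 FPKM. The ranges over libraries overlapped between PLAT and LAMB1, although PLAT was above LAMB1 within each library. They also overlapped between FN1 and either collagen chain and between CCN2 and PLAU, and there the order differed between libraries. LAMC1 was above 92.4% of the genes tested and ACTA2 above 6.64%. The exonic size used for FPKM counts every annotated exon and is 17216 bases for FN1, against 8905 bases for its longest coding transcript in GENCODE 29. Scaling to the longest coding transcript kept the order except that PLAU passed CCN2 (0.994 against 0.956 CPM per kilobase).

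The genes with library profiles most like FN1, ACTA2 and PLAT were sought among 6875 genes with a mean FPKM of at least 5, by the root-mean-square difference of log2 CPM from the gene's own mean over the 6 libraries. For FN1 they were SAT1 (0.166), ALKBH7 (0.166) and STC1 (0.169). SAT1, which acetylates polyamines, stood at 40.8 FPKM in GFP replicate 3, between the other GFP libraries (31.7 and 33.4 FPKM) and the GFP-812 libraries (51.9 to 55 FPKM). Those nearest to PLAT were DNASE2 (0.0549), CAV1 (0.0564) and NES (0.0613). For ACTA2 they were SNORD83A (0.247), MIR221 (0.313) and SAT1 (0.403). ACTA2 rests on 5 to 19 counts, so these larger distances do not show whether any gene tracked it.

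Other genes of the plasminogen system, taken from a list of 17 of which 13 were tested, rose in 4 cases and fell in none by edgeR at an adjusted p under 0.05, a share of 30.8% where 3.84% of all genes tested were called. The list median was a log2 fold change of 0.26, against 0.00686 for all genes. This list and those below were drawn up with earlier results of these data known, so their shares and medians are no test of them. Among the 4 genes that rose were S100A10, which holds plasminogen at the cell surface with ANXA2, and 2 inhibitors. These were TFPI2, a Kunitz-type inhibitor of plasmin and other proteases, and SERPINB2, an inhibitor of urokinase. S100A10, the most abundant gene of the list, stood at 106.4, 101.9 and 97.1 FPKM in GFP-812 libraries and at 85.5, 81.2 and 96 FPKM in GFP libraries (log2 fold change 0.23, SE 0.0548, edgeR adjusted p = 0.00731). Both of these inhibitors had the same kind of split within the GFP group as FN1. TFPI2 stood at 4.45, 4.45 and 3.81 FPKM in GFP-812 libraries and at 0.41, 0.46 and 4.33 FPKM in GFP replicates 1, 2 and 3. SERPINB2 stood at 1.31, 1.71 and 1.45 FPKM in GFP-812 libraries, at 0 counts in GFP replicates 1 and 2 (up to 3 counts in each are allowed by a count of 0) and at 1.64 FPKM, from 72 counts, in GFP replicate 3. It passed the filter on low counts only through the GFP-812 libraries. In both genes GFP replicate 3 fell within the range of the GFP-812 libraries, so the groups overlapped although edgeR called a difference (log2 fold changes 1.30 and 1.46 for TFPI2 and SERPINB2, edgeR adjusted p = 0.00432 and 0.0496).

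The calls on this list changed with single libraries. Leaving out GFP-812 replicate 1, 2 or 3 gave 3, 0 or 2 calls on the list, and leaving out GFP replicate 1, 2 or 3 gave 0, 0 or 6. Where a call was lost, the edgeR adjusted p was 0.0752 to 0.107 for TFPI2, 0.102 to 0.312 for SERPINB2 and 0.0525 to 0.0889 for S100A10. SERPINB2 also missed the threshold with total-count scaling (0.0574) and among genes with a mean FPKM of 1 or more (0.0526). Without GFP replicate 1 the log2 fold changes of TFPI2 and SERPINB2 were 0.83 and 0.88, and without GFP replicate 2 they were 0.85 and 0.88. Without GFP replicate 3, TFPI2 was at 3.29. DESeq2 called 1 of the list and limma on log2(FPKM + 1) none, with limma adjusted p of 0.343 for TFPI2 and 0.369 for SERPINB2. Plasminogen itself, the substrate, was at 0 counts in all 6 libraries (PLG). The urokinase receptor PLAUR stood at 1.59 ± 0.129 FPKM in GFP-812 and 1.88 ± 0.162 FPKM in GFP (SD over n = 3 each; log2 fold change -0.22, edgeR adjusted p = 0.474), and ANXA2 at 12.7 ± 0.281 and 11.5 ± 0.771 FPKM (log2 fold change 0.15, edgeR adjusted p = 0.0521).

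**Figure D3:**
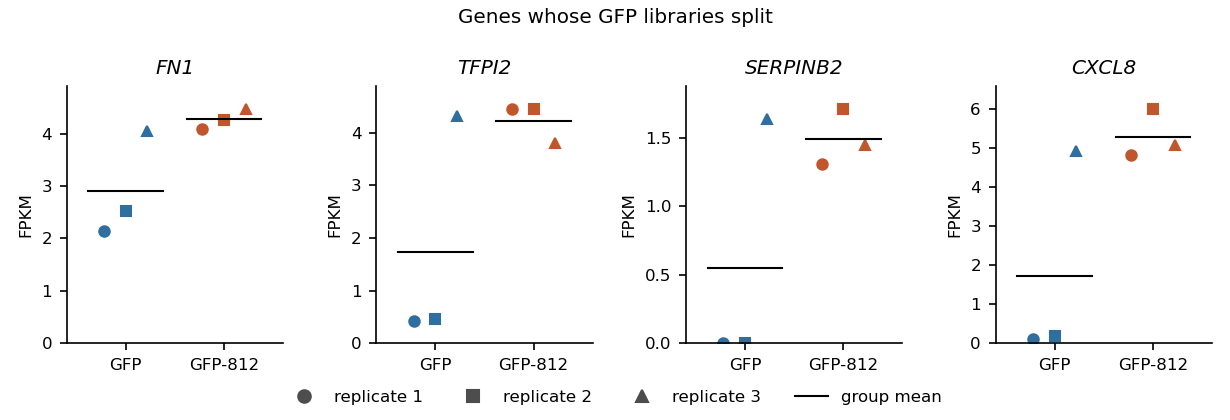
Level in FPKM (vertical axis, from 0) of FN1, of the protease inhibitor genes TFPI2 and SERPINB2, and of the chemokine gene CXCL8 in each library. Marker shapes give the replicate number and horizontal lines the group mean. GFP replicate 3 stood within or just under the GFP-812 libraries in all 4 genes, TFPI2 being at 4.33 FPKM there against 0.41 and 0.46 FPKM in the other GFP libraries.

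No other basement membrane or interstitial matrix gene passed the edgeR threshold. Of 30 basement membrane genes beyond the 4 described above 25 were tested, with 0 past the threshold, 22 fitted above 0 and 3 below, and a median log2 fold change of 0.09. At an unadjusted p under 0.05 there were 5, among them SPARC, LAMA4, PXDN and NID1. Of all 16834 genes tested, 2717 had an unadjusted edgeR p under 0.05, and 51.8% had a log2 fold change above 0. NID1, which links laminin to collagen IV and is the most abundant of the list, stood at 38.6 ± 0.865 FPKM in GFP-812 and 36.6 ± 0.333 FPKM in GFP, and DAG1, a laminin receptor, at 16.2 ± 0.0961 and 16 ± 0.246 FPKM (SD, n = 3 each). Of 47 interstitial matrix genes 33 were tested, again with 0 past the threshold, 24 above 0, 9 below and a median of 0.16, and 9 had an unadjusted p under 0.05. The most abundant were COL6A1, a microfibrillar collagen, at 12.1 ± 0.349 against 10.8 ± 0.58 FPKM, and FBN2, a fibrillin, at 8 ± 0.403 against 7.79 ± 0.16 FPKM (SD, n = 3 each). Without GFP replicate 3, 2 basement membrane genes were called higher and 1 interstitial gene lower, and without GFP replicate 2, 1 interstitial gene was called higher. DESeq2 called 0 on both lists.

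Among enzymes that modify collagen, both genes that rose kept their calls with any library left out. Of 32 genes for collagen processing 31 were tested, 2 rose, 0 fell and 29 did not pass, a share of 6.45% with a median log2 fold change of 0.06. The 2 that rose were also the most abundant: PLOD2, a lysyl hydroxylase, at 49.2 ± 2.13 against 41.7 ± 2.79 FPKM (SD over n = 3 each; log2 fold change 0.25, SE 0.0417, edgeR adjusted p = 6.72e-05), and P4HA1, a prolyl 4-hydroxylase subunit, at 68 ± 4.69 against 58.1 ± 2.07 FPKM (SD over n = 3 each; log2 fold change 0.24, SE 0.0452, edgeR adjusted p = 0.000396). Both are also known to be induced by hypoxia. With any 1 library left out the edgeR adjusted p was up to 0.00908 for PLOD2 and 0.0376 for P4HA1. Without GFP replicate 3, 5 genes of the list rose.

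Receptors of the matrix did not pass the threshold in any case. Of 43 integrins, syndecans, discoidin receptors and focal adhesion genes 40 were tested, with 0 called by edgeR or by DESeq2 and a median log2 fold change of 0.04. At an unadjusted edgeR p under 0.05 there were 8, where 2717 of all 16834 genes tested were. The most abundant were VCL, encoding vinculin, at 23.2 ± 0.891 against 22.2 ± 0.675 FPKM, and SDC2, a syndecan, at 18.3 ± 0.25 against 17 ± 0.968 FPKM (SD, n = 3 each). The chains of the classical fibronectin receptor, ITGA5 and ITGB1, had log2 fold changes of -0.09 (edgeR adjusted p = 0.582) and 0.02 (edgeR adjusted p = 0.91). Among 34 actin and contractile genes 30 were tested, 1 rose and 0 fell, a share of 3.33% with a median of 0.04. That gene was DES, the intermediate filament of muscle, at 0.597 ± 0.142 against 0.223 ± 0.0896 FPKM (SD, n = 3 each) from 5 to 27 counts (log2 fold change 1.41, SE 0.425, edgeR adjusted p = 0.046), and it passed in 1 of the 6 fits that left out a library, the one without GFP replicate 3 (adjusted p 0.0393 to 0.223 over the 6). DES also missed the threshold without a filter on low counts (0.0562), and it passed that filter only through the GFP-812 libraries. Leaving out GFP replicate 2 gave 2 calls on this list, leaving out GFP replicate 3 gave 3, and leaving out any of the other libraries gave 0.

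Most CCN genes and genes of the YAP pathway did not pass the threshold. Of 42 genes 39 were tested, 2 rose, 2 fell and 35 did not pass, a share of 10.3% where 3.84% of all genes tested were called, with a median log2 fold change of 0.01. CCN1, the closest relative of CCN2, stood at 2.38 ± 0.252 against 2.36 ± 0.268 FPKM (SD over n = 3 each; edgeR adjusted p = 0.958). GADD45A, a growth arrest gene, rose to 25.6 ± 1.78 from 21.6 ± 0.998 FPKM, and NT5E, a surface nucleotidase, to 0.587 ± 0.0681 from 0.273 ± 0.125 FPKM (SD over n = 3 each; edgeR adjusted p = 0.0151 and 0.0325). LATS1, the kinase that restrains YAP, fell to 10.7 ± 0.48 from 12.8 ± 0.721 FPKM (SD over n = 3 each; log2 fold change -0.25, SE 0.052, edgeR adjusted p = 0.00176), and AMOTL2, a YAP-binding scaffold and itself a YAP target, to 1.32 ± 0.146 from 1.82 ± 0.199 FPKM (SD over n = 3 each; edgeR adjusted p = 0.0453). LATS1 kept its call without any 1 library (adjusted p up to 0.0432). GADD45A lost its call with GFP-812 replicate 2, GFP-812 replicate 3 or GFP replicate 1 left out (0.0531, 0.193 and 0.133). NT5E kept its call only with GFP-812 replicate 1 or GFP replicate 3 left out (0.103 to 0.196 otherwise), and AMOTL2 lost it in every such fit but the one without GFP replicate 3 (0.0527 to 0.235), and without the filter on low counts (0.0562). The list had 1 call without GFP-812 replicate 2, GFP-812 replicate 3 or GFP replicate 1, and 2, 3 and 6 calls without GFP replicate 2, GFP-812 replicate 1 and GFP replicate 3. The most abundant genes of the list, AMOT at 158 ± 0.388 against 151 ± 5.23 FPKM and MOB1A at 44 ± 0.829 against 44.1 ± 1.22 FPKM (SD, n = 3 each), did not pass.

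On the TGF-beta list, whose pathway induces fibronectin and CCN2 in many cells, 24 of 25 genes were tested, 2 rose and 1 fell, a share of 12.5% with a median log2 fold change of -0.00549. Among the risen genes was LTBP1, which binds latent TGF-beta to fibronectin fibrils, at 4.39 ± 0.278 against 3.69 ± 0.286 FPKM (SD over n = 3 each; log2 fold change 0.26, edgeR adjusted p = 0.0497). SKIL, a repressor of SMAD proteins that the pathway induces, fell to 7.35 ± 0.528 from 9.26 ± 0.977 FPKM (SD over n = 3 each; log2 fold change -0.32, SE 0.0642, edgeR adjusted p = 0.000999). LTBP1 passed in 1 of the 6 fits that left out a library, the one without GFP replicate 3 (adjusted p 0.0278 to 0.304 over the 6), and missed the threshold with either other scaling, without the filter and with DESeq2 (0.0511 to 0.0765), and SKIL lost its call without GFP-812 replicate 2 (0.0643). Leaving out GFP-812 replicate 2 gave 0 calls on this list and leaving out GFP replicate 3 gave 6 (2 higher, 4 lower), while GFP-812 replicate 3, GFP replicate 1 and GFP replicate 2 each gave 1. TGIF2 and SKI, the most abundant genes of the list, were at 14.7 ± 0.494 against 15 ± 0.251 and at 14.1 ± 0.624 against 14.4 ± 0.497 FPKM (SD, n = 3 each).

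Of 31 matrix proteases and their inhibitors 22 were tested, 1 rose and 0 fell, a share of 4.55% with a median log2 fold change of 0.10. It was ADAMTS1, a secreted protease that cuts proteoglycans and the most abundant gene of the list, at 138 ± 8.06 against 109 ± 12.7 FPKM (SD over n = 3 each; log2 fold change 0.36, SE 0.0448, edgeR adjusted p = 2.3e-07). It kept the call without any 1 library (edgeR adjusted p up to 0.000615). With DESeq2 its adjusted p was larger, at 0.0159, for a log2 fold change of 0.357. On this list 4 genes rose without GFP replicate 3 and 2 without GFP-812 replicate 1. TIMP1, the metalloproteinase inhibitor next in level, stood at 28 ± 0.756 against 25.6 ± 1.53 FPKM (SD over n = 3 each; edgeR adjusted p = 0.333). Over all 9 lists 298 distinct genes were named and 255 tested, of which 11 rose and 3 fell, or 5.49% where 3.84% of all genes were called. With limma on log2 FPKM none of these 14 genes passed.

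**Figure D4:**
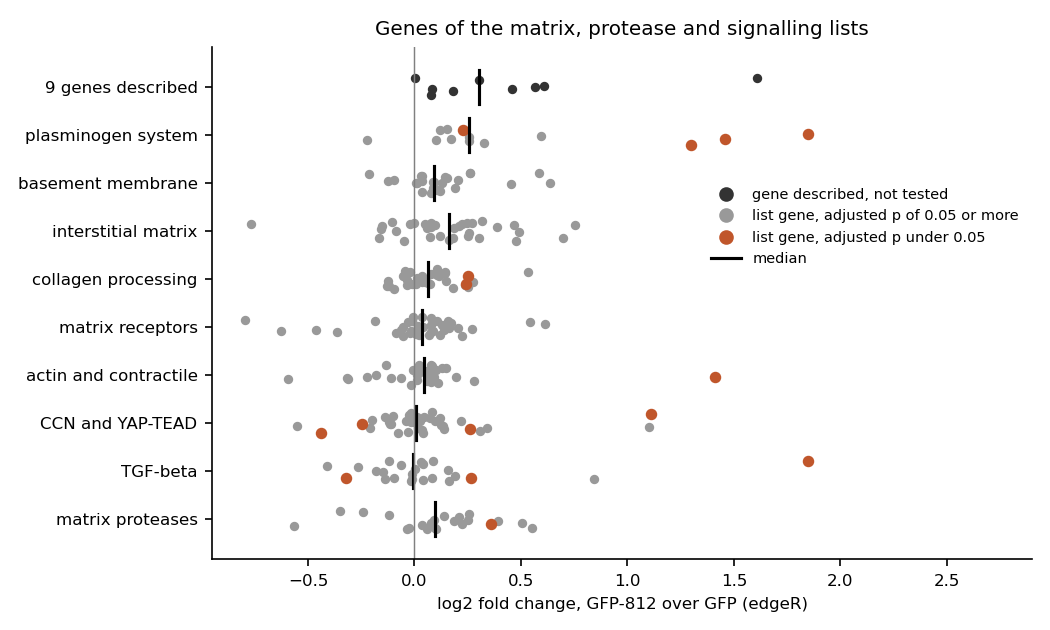
Log2 fold change of GFP-812 over GFP libraries from edgeR (horizontal axis) for the 9 genes described and for each tested gene of the 9 lists (rows, with points spread vertically for legibility). Black points are the 9 genes, orange points list genes with an adjusted p under 0.05 and grey points the other list genes. Vertical bars mark medians, which for the lists ran from -0.00549 for TGF-beta to 0.26 for the plasminogen system.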

How the data were processed

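The authors deposited 1 table with raw counts per Ensembl gene and library, and, per the file headers, FPKM for the same libraries. FPKM equalled the count divided by exonic size and library total for 100% of values within 0.0051. The submitters' processing notes list HISAT2 2.2.1, HTSeq 0.6.1, cutadapt 1.9.1 and FastQC 0.10.1, with the build hg38. Poly(A) RNA was sequenced, per the labels' protocols. The strand setting is not stated there, nor is the annotation release.

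The counts were fitted with edgeR 4.0.16 in R 4.3.3 (filterByExpr, TMM, quasi-likelihood F test, group as the single term, 2-sided, Benjamini-Hochberg over 16834 genes, threshold 0.05), tested on simulated data. SEs come from the F statistic, whose variance is moderated across genes. Groups and replicate numbers are those of the sample titles. The genes and lists were chosen with earlier results of these data known. Named were the 9 genes, up to 4 list members past the threshold per direction, and the 2 most abundant of each list. Also named were 3 genes of like profile for FN1, ACTA2 and PLAT, and some of the genes overlapping the 9. NEK1, actin genes and cell type markers were named too. PLG, PLAUR, ITGA5, ITGB1, CCN1, SPARC, LAMA4, PXDN, TLE2 and CXCL8 were named outside that rule after their values were seen. Promoter motifs were also chosen then. Some list genes that enter the counts are not reported here by name. Alternatives were other scalings and filters, DESeq2 1.42.0, limma 3.58.1 on log2 FPKM with a pseudocount of 1 or 0.1, the replicate block and leaving out each library.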

Additional observations from a re-analysis of the deposited data

How the results depend on the processing

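The replicate numbers showed no clear pairing: same-numbered libraries had correlations of 0.105, -0.00465 and -0.0249 between their deviations from the group means. Pairs of unlike number ran from -0.1005 to 0.1084. With 3 libraries per group, whose deviations sum to 0, this check cannot exclude a pairing. With the replicate number as a block edgeR called 777 genes instead of 647, and 4 collagen processing, 1 basement membrane and 2 actin genes. The counts of genes changed ranged from 209 (without GFP-812 replicate 2) to 1317 (without GFP replicate 3), and were 4 with limma at either pseudocount and 523 with DESeq2. With limma at either pseudocount 0 genes were called on the lists for the plasminogen system, collagen processing, actin, CCN and YAP-TEAD, TGF-beta and matrix proteases. DESeq2 called 1, 0, 2 and 1 on those for the plasminogen system, actin, CCN and YAP-TEAD and TGF-beta. DESeq2 gave no adjusted p for TFPI2, SERPINB2, DES, NT5E and AMOTL2. Median-of-ratios or total-count scaling gave 2 actin genes. Without a filter 1 interstitial, 0 actin and 2 protease genes were called, and with a mean FPKM minimum of 1, 2 interstitial, 4 collagen processing and 2 protease genes, while ACTA2, PLAU and CCN2 were not fitted.

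With 1 library left out, calls ranged from 0 to 6 for the plasminogen system, 0 to 2 for basement membrane, 0 to 1 for interstitial matrix, 2 to 5 for collagen processing, 0 to 3 for actin, 1 to 6 for CCN and YAP-TEAD, 0 to 6 for TGF-beta and 1 to 4 for proteases. ACTA2 ranged from 1.49 to 1.86. On log2(FPKM + 1) it was 0.30 and PLAU 0.21, and on log2(FPKM + 0.1) ACTA2 was 1.12. COL4A2 was -0.00822 with total-count scaling and -0.00668 and -0.00813 with limma. The causes were not tested, except that a pseudocount shrinks low values. At 5 to 56 counts, depth limits what can be said of ACTA2, CCN2 and PLAU.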

Other observations

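FN1 was among the genes in which GFP replicate 3 departed most from the other GFP libraries. Among 11071 genes with a mean count of at least 100, the log2 CPM of GFP replicate 3 exceeded the mean of the other GFP libraries by more than 1 in 2 genes, CXCL8 (4.81) and TFPI2 (3.18), and FN1 ranked 3 at 0.795. The next was TLE2 at 0.697. Differences over 0.5 in either direction were no more frequent in GFP replicate 3 (68 genes) than in GFP replicate 1 (68) and close to GFP replicate 2 (64). With GFP replicate 1 set against the mean of GFP replicates 2 and 3, FN1 was at -0.564 and rank 11049 of 11071. The high FN1 level of GFP replicate 3 enters that mean, so this is not a separate observation. CXCL8, a chemokine that attracts neutrophils, stood at 4.82, 5.99 and 5.07 FPKM in GFP-812 libraries, at 0.1 and 0.17 FPKM in GFP replicates 1 and 2 and at 4.91 FPKM in GFP replicate 3. The median absolute difference between GFP replicate 3 and the other GFP libraries was 0.0828, against 0.0825 for GFP replicate 2 and 0.074 for GFP replicate 1. This ranking of a single library was made after the data were examined, and its cause was not tested.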
